A study of Mus musculus with 2 samples.

Results

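Mir484, Mir320, Mir877 and Mir1224 are microRNA (miRNA) genes whose precursors bypass Drosha, the nuclear enzyme that cuts most miRNA hairpins out of their primary transcripts. They were taken as a fixed set of 4 genes by symbol, 4 of the 1973 miRNA gene rows counted, and all 4 had a row. The libraries held small RNA below 30 nt from the forebrain of B6NCrl mouse embryos at embryonic day 15.5, healthy, of both sexes, in 1 group with 2 biological replicates. Replicate 2 pooled 62 embryos and replicate 1 pooled 78. No treatment or engineered allele is named for either pool. With 1 group there was no comparison between conditions, so the comparisons are between members, between the members and the remaining miRNA genes, and between the 2 libraries.

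A canonical miRNA hairpin is released by Drosha and its partner Dgcr8, exported from the nucleus and cut by Dicer into a short duplex, 1 strand of which is loaded into an Argonaute protein. Mir484 and Mir320 are known for hairpins that are made directly by RNA polymerase II, carry the cap of the transcript at their 5′ end and leave the nucleus by the exportin 1 route. Mir877 and Mir1224 are mirtrons, short introns that fold into a hairpin once the spliceosome has cut them out and the lariat has been opened. Both kinds of hairpin are cut by Dicer, as canonical ones are. Neither the cap nor splicing was measured in these libraries.

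The hairpins are shown first, since their ends carry the difference between the 2 routes. RefSeq sequences (build GRCm38.p6) matched 3 of the 4 members, and Mir320 was not among them. In Mir484 the capitals mark the annotated mature miRNA. In both mirtrons the capitals mark the first and last 2 bases, which are the GU and AG that end a spliceosomal intron.
Mir484 hairpin (chr16:14159626-14159692, plus strand): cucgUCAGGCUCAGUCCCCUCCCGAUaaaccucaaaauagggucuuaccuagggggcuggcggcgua
Mir877 hairpin (chr17:35960730-35960814, minus strand): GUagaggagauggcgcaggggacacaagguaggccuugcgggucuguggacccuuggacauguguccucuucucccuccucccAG
Mir1224 hairpin (chr16:20604452-20604536, plus strand): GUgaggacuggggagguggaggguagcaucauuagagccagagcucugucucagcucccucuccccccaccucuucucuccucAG

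The mature miRNAs are shown with the seed, bases 2 to 8, in capitals, because the seed is the part that chiefly selects target messenger RNAs.
mmu-miR-484: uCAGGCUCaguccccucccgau
mmu-miR-877-5p: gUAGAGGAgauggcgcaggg
mmu-miR-877-3p: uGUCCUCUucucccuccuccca
mmu-miR-1224-5p: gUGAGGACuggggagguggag
mmu-miR-1224-3p: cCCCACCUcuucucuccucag
The 5 seeds differed from each other, and 0 other mature sequences of the 1738 in the RefSeq table carried any of them. No run of 16 bases of a mature sequence occurred in another hairpin of that table. Copies elsewhere in the genome were not searched for.

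The mirtron arms were set apart from most miRNAs by base composition. Arms of other miRNA genes whose hairpin fills an intron were not compared, so the trait is not shown to be particular to these 2. The 3p arms, which hold the pyrimidine-rich end of the intron, were 90.9% C or U in miR-877-3p and 85.7% in miR-1224-3p. Of all mature mouse sequences, 0.0575% were richer in pyrimidines than miR-877-3p and 1.04% were richer than miR-1224-3p. The facing 5p arms were 20% in miR-877-5p and 19.05% in miR-1224-5p, against a median of 50% over all mature sequences. The miRNA of Mir484 stood at 68.2%.

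In GENCODE M21, on the same genome build as the counts, the 2 mirtrons filled an intron to the base. Mir877 (85 bases) lay at offset 0 from both ends of intron 12 of Abcf1, which encodes a ribosome-associated translation factor. Mir1224 (85 bases) lay at offset 0 from both ends of intron 22 of Vwa5b2. Their annotated 5p arms began at the first base of the hairpin, 0 bases in. Over the 869 counted genes with 1 RefSeq hairpin, the median was 12 bases of hairpin before the first mature base, and 94 hairpins (10.8%) had 0. Among the 17 hairpins of genes that fill an intron, both mirtrons included, 14 (82.4%) had 0. Of those 869 hairpins, 30 (3.45%) began with GU and ended with AG.

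The capped pair had no host on its own strand and lay beside a gene read in the other direction. The 5′ end of Mir320 (chr14:70443510-70443591, plus strand, 82 bases) was 63 bases upstream of the nearest protein-coding start site, that of Polr3d, a subunit of RNA polymerase III. The 5′ end of Mir484 (67 bases) was 359 bases upstream of a start site of Marf1, which encodes an RNA-binding protein needed in oocytes. Mir484 also overlapped an exon of a Marf1 transcript on the opposite strand. Such a position, within 500 bases upstream of a start site on the other strand, was held by 15 of the 1894 counted genes that had a GENCODE M21 locus (0.792%). Its definition was chosen after the loci of the members were known. The mature miRNA of Mir484 began 4 bases into the hairpin and left 41 bases after it.

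**Figure D1:**
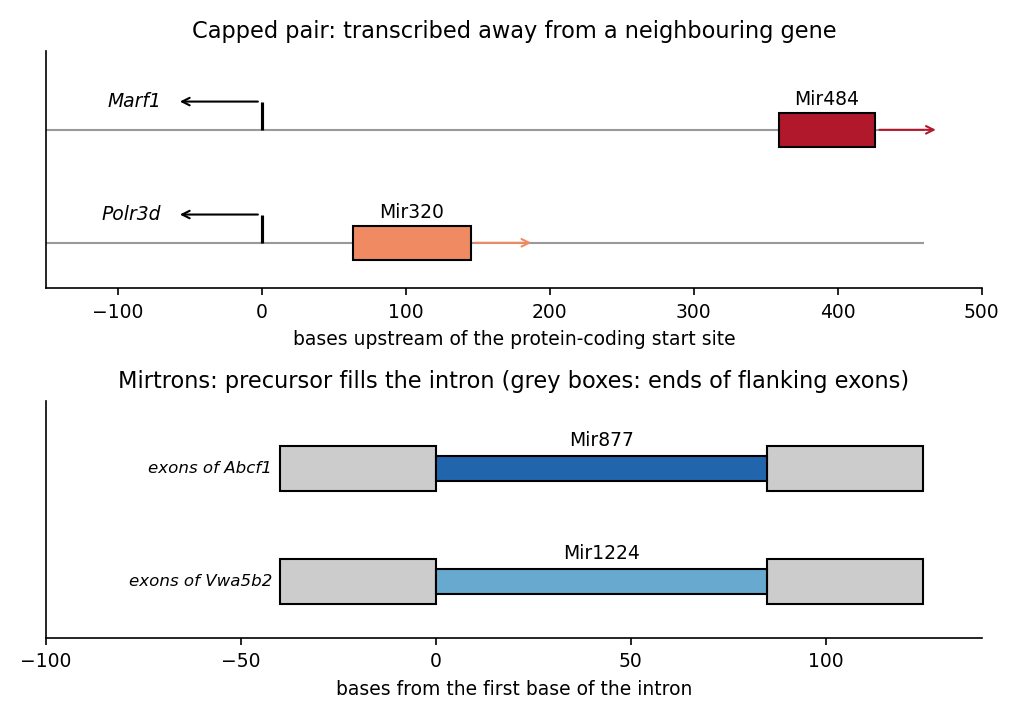
Position of the 4 precursors, in bases. Upper panel: Mir484 and Mir320 (boxes, arrows in the direction of transcription) by distance from the nearest protein-coding start site, with 359 bases for Mir484 and 63 for Mir320; lower panel: Mir877 and Mir1224 by distance from the first base of their intron, both 85 bases long and filled from end to end, with the adjoining exons drawn only as stubs.

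The hairpins of the 3 sequenced members were GC-rich. GC content was 58.2% for Mir484, 61.2% for Mir877 and 60% for Mir1224, against a median of 52.3% over the 869 hairpins. Lower GC content was found in 74.6% of hairpins for Mir484, 83.4% for Mir877 and 79.7% for Mir1224. The predicted folding energy of RNAfold was -24.6 kcal/mol for Mir484, -36.5 for Mir877 and -42.8 for Mir1224, against a median of -33.2. Per 100 bases, Mir1224 was predicted to fold more stably than 83.9% of hairpins, Mir877 than 58.3% and Mir484 than 29.7%.

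The libraries held 13074292 reads in replicate 2 and 11743597 in replicate 1, of which 4753555 and 4464927 were counted on the sense strand of a miRNA gene. Levels are those sense counts scaled to a sum of 1000000 per library (CPM). Reads placed at more than 1 locus, 42.4% of reads in replicate 2 and 44.6% in replicate 1, stood in a row of their own outside the gene rows. Of the listed neural markers, 6 of 9 with a row were detected (a minimum of 10 counts per library), and the 9 summed to 18376 CPM in replicate 2 and 18693 CPM in replicate 1. Those not detected were Mir124a-1, Mir124a-2 and Mir124a-3, with means of 2.80, 2.25 and 1.05 CPM, and Mir9-1 had no row. Any of their reads placed at more than 1 locus would be outside these counts. Mir137 was lower in replicate 2 (8437 against 9747 CPM) and Mir92b higher (6123 against 4971 CPM). Of the muscle markers, Mir1a-1, Mir133a-1 and Mir133a-2 were at 0. Mir208b stood at 41.2 CPM in replicate 2 and 34.7 CPM in replicate 1, and Mir206 at 4.84 and 20.6 CPM, so that the muscle list summed to 46.1 and 55.3 CPM. Endothelial Mir126a stood at 16377 and 15856 CPM, the mural and mesenchymal list at 3777 and 3434 CPM, the erythroid list at 165 and 140 CPM, the immune list at 167 and 164 CPM, the Hox cluster list at 418 and 326 CPM and liver Mir122 at 88.6 and 65.6 CPM. Within the immune list, Mir223 stood at 98.7 CPM in replicate 2 and 77.3 CPM in replicate 1. Mir155 went the other way, at 68.2 and 86.5 CPM, and Mir142 had no row. In bulk tissue, fewer cells of a type and less RNA per cell cannot be told apart.

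All 4 members were detected, and their levels spread over more than 2 orders of magnitude. The capped Mir484 had 13704 counts in replicate 2 and 11962 in replicate 1, which is 2883 CPM (Clopper-Pearson 95% interval 2835 to 2931.5) and 2679 CPM (2631 to 2727). The capped Mir320 had 2047 and 1996 counts, which is 431 CPM (412 to 450) in replicate 2 and 447 CPM (428 to 467) in replicate 1. The intervals did not overlap between libraries for Mir484 and overlapped for Mir320. Non-overlap was not counted over all genes. By the exact binomial test given below, 36.3% of tested genes (166 of 457) differed between the libraries.

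The mirtrons were lower. Mir877 had 381 counts in replicate 2 and 294 in replicate 1, which is 80.2 CPM (72.3 to 88.6) and 65.8 CPM (58.5 to 73.8). Mir1224 had 35 and 45 counts, which is 7.36 CPM (5.13 to 10.2) in replicate 2 and 10.1 CPM (7.35 to 13.5) in replicate 1. The intervals of each mirtron overlapped between the libraries. Reads carry no molecular identifiers here, so these intervals cover counting error only.

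The order Mir484, Mir320, Mir877, Mir1224 was the same in both libraries, and each neighbouring pair differed by more than either SD. Mir484 averaged 2781 ± 144 CPM and Mir320 439 ± 11.6 CPM (SD, n = 2 libraries). Mir484 exceeded Mir320 by 6.69-fold in replicate 2 (counting interval 6.39 to 7.02) and 5.99-fold in replicate 1 (5.72 to 6.29). Mir877 averaged 73.0 ± 10.1 CPM, below Mir320 by a factor of 5.37 in replicate 2 (4.81 to 6.01) and 6.79 in replicate 1 (6.004 to 7.70). Mir1224 averaged 8.72 ± 1.92 CPM. Mir877 exceeded it by 10.9-fold in replicate 2 (7.69 to 15.9) and 6.53-fold in replicate 1 (4.76 to 9.15), so this step was the least precisely placed of the 3. With 2 libraries no permutation test could reach 0.05, so the order is given as a description.

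The capped pair outweighed the mirtron pair. Mir484 and Mir320 summed to 3314 CPM in replicate 2 and 3126 CPM in replicate 1, and Mir877 and Mir1224 to 87.5 and 75.9 CPM. The sums differed by 37.9-fold in replicate 2 and 41.2-fold in replicate 1. Mir484 alone held 84.8% and 83.7% of the members' counts, so the summed share of the set, 0.340% and 0.320% of sense counts, is mostly that of Mir484. These are differences in reads per gene: each read is a short RNA, so the main values are not divided by length. Per base of annotated precursor, Mir484 exceeded Mir320 by 7.76-fold and Mir320 exceeded Mir877 by 6.30-fold on average. The mirtrons have precursors of equal length, so their ratio was unaffected.

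**Figure D2:**
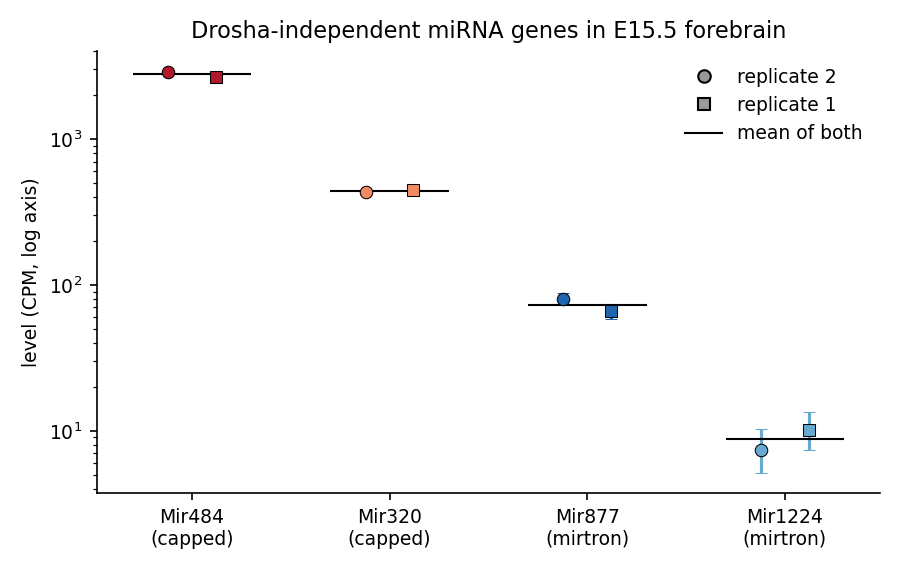
Level of each member in CPM on a log axis, with replicate 2 as circles, replicate 1 as squares, Clopper-Pearson 95% intervals as bars and the mean of both libraries as a line. Both capped genes lie above both mirtrons in each library, from means of 2781 CPM for Mir484 to 8.72 CPM for Mir1224.

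Within the whole profile the capped genes stood in its upper part and the mirtrons lower. Among the 370 detected genes, whose median was 111 CPM, 85.4% were lower than Mir484 and 67.8% were lower than Mir320. Mir877 lay above 43.2% of detected genes and Mir1224 above 17.0%. By rank among all 1973 rows, Mir484 was 55 in both libraries, Mir320 was 122 in replicate 2 and 118 in replicate 1, Mir877 was 208 and 210, and Mir1224 was 312 and 298. Undetected rows made up most of the table, and 1249 rows had no count in either library.

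The genes with levels closest to each member, by distance of log2(CPM + 1) over the 2 libraries, were all placed differently in the genome from it. They were Mir140 (0.082) and Mir872 (0.14) for Mir484, and Mir330 (0.072) and Mir185 (0.086) for Mir320. For Mir877 they were Mir362 (0.047) and Mir19a (0.084), and for Mir1224 Mir466n (0.28) and Mir216a (0.38). Each of these 8 genes overlapped an exon or lay inside a longer intron of a host. Those were common placements: of 370 detected genes, 97 overlapped an exon and 165 lay inside a longer intron. Only 7 filled an intron, and 101 had no host on their strand. With 2 libraries this likeness is mainly one of level.

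**Figure D3:**
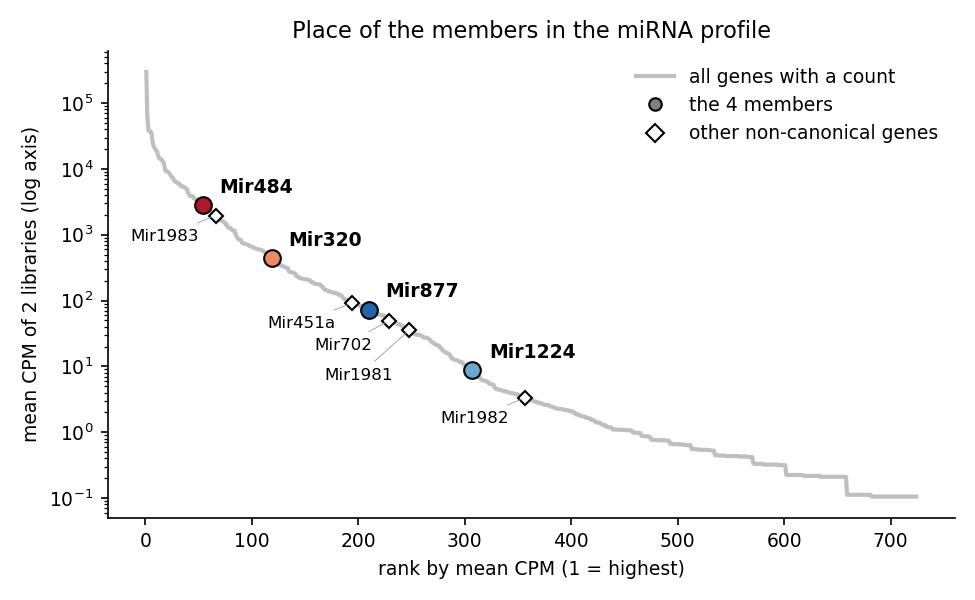
Mean CPM of 2 libraries on a log axis against rank, for every gene with a count (grey line), with the 4 members as filled circles and other miRNA genes listed as non-canonical candidates, and Mir451a, as open diamonds. Mir484 lies at 2781 CPM in the upper part of the curve, above Mir1983, and Mir1224 at 8.72 CPM, between Mir1981 and Mir1982.

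Other miRNA genes listed as candidates for a non-canonical route fell between the members or below Mir1224. The list rests on general knowledge of these genes, and only their place relative to introns was checked here. Mir1983, whose sequence is related to a transfer RNA, averaged 1954 ± 162 CPM, between Mir484 and Mir320; its level is uncertain where reads also fit transfer RNA genes. Mir451a, a red blood cell miRNA that needs Drosha but is cut by Ago2 in place of Dicer, averaged 92.0 ± 10.04 CPM, between Mir320 and Mir877. Of 5 further candidates for an origin from introns, 3 had a row. Mir702 averaged 49.4 ± 6.56 CPM, Mir1981 35.5 ± 0.804 CPM and Mir1982 3.34 ± 0.926 CPM (SD, n = 2). All 3 were below Mir877, and Mir1224 lay between Mir1981 and Mir1982. Mir702 overlapped an exon of its host Plod3 and missed the ends of the intron there by up to 9 bases. The other 2, Mir1225 and Mir1228, had no row. Mir664 and Mir1839, listed as candidates for an origin from small nucleolar or Cajal body RNA, had no row either.

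By annotation alone, 23 of the 1894 located miRNA genes (1.21%) filled an intron, with both ends within 5 bases of its ends, the 2 mirtron members among them. Of the 23, 7 were detected (30.4%), against 370 of all 1894 (19.5%). Without Mir877 and Mir1224, 5 of 21 were detected (23.8%). Mir877 had the highest mean level of the 23, and Mir1224 was also in the upper part. Between them came Mir6944 at 60.5 ± 6.37 CPM, in an intron of Dbn1, the gene of the neuronal actin-binding protein drebrin. Mir3102 followed at 41.9 ± 3.82 CPM, in an intron of Arhgef17, and then Mir1981, in an intron of Marc2. Mir877 and Mir6944 lay close together: Mir6944 stood at 65.0 CPM in replicate 2 and 56.0 in replicate 1, against 80.2 and 65.8 CPM for Mir877. Mir877 was the higher in each library, and this difference was not tested. The 23 genes together held 0.0250% of sense counts in replicate 2 and 0.0222% in replicate 1, less than Mir320 alone. Of the 17 with a RefSeq hairpin, 15 began with GU and ended with AG, and the median GC content of the 17 was 60.5%. Those GU and AG ends follow from choosing genes whose ends lie at intron ends. Among all 869 hairpins, 30 had such ends, and 15 of the 30 were of genes that fill an intron.

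**Figure D4:**
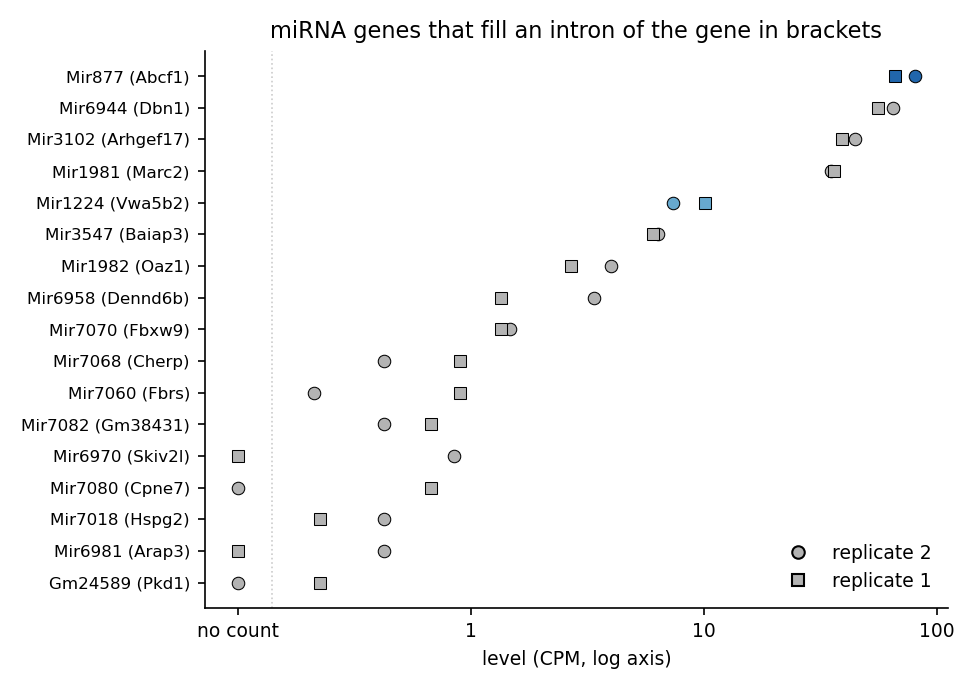
Level in CPM on a log axis of the 17 intron-filling miRNA genes that had a count in either library, with replicate 2 as circles and replicate 1 as squares, the host gene in brackets, and libraries without a count placed left of the dotted line. Mir877 is the highest at 80.2 and 65.8 CPM, and Mir1224 follows Mir1981.

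Between the 2 libraries, log2 ratios of replicate 2 over replicate 1 were 0.11 for Mir484 and -0.054 for Mir320, and larger in size for the mirtrons, which had fewer counts, at 0.28 for Mir877 and -0.45 for Mir1224. For each gene the counts were tested by a two-sided exact binomial test with Benjamini-Hochberg adjustment at 0.05, over the 457 genes with at least 10 counts in total. The test compares 2 libraries of 1 group, not conditions. Of the 4 members, 2 were called, both higher in replicate 2. Over all tested genes 36.3% were called (166 of 457), 19.3% higher and 17.1% lower in replicate 2, and 4 members are too few to set apart from those shares. Over all tested genes, 88 calls (53.0%) were higher in replicate 2, against 42.9% with TMM scaling and 69.1% with the most abundant gene left out of the total.

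Mir484 was higher in replicate 2 by 0.11 on the log2 scale (counting interval 0.070 to 0.14, exact binomial test, adjusted p = 2.7e-08). The difference was small beside those of other genes: 65.9% of detected genes had a larger absolute log2 ratio, and its call held under each scaling and count minimum run. Mir877 was higher in replicate 2 by 0.28 (interval 0.060 to 0.51, exact binomial test, adjusted p = 0.0352). That call was lost with TMM scaling (adjusted p = 0.0789), with DESeq2 size factors (0.0611) and without a count minimum (0.0558). A larger absolute log2 ratio was found in 31.9% of detected genes.

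Mir320 had a log2 ratio of -0.054 (interval -0.14 to 0.036, exact binomial test, adjusted p = 0.395), and the sign turned to 0.0057 with the most abundant gene left out of the total. Mir1224 had a log2 ratio of -0.45 (interval -1.13 to 0.22, exact binomial test, adjusted p = 0.32). Its 35 and 45 counts leave room for a difference in either direction. Of detected genes, 18.1% had a larger absolute log2 ratio than Mir1224 and 81.9% a larger one than Mir320. The median log2 ratio of detected genes was 0.046 and the median absolute ratio 0.19. Relative to their means, the SDs of the members were 5.18% for Mir484, 2.64% for Mir320, 13.9% for Mir877 and 22.02% for Mir1224. These include counting error. The common coefficient of variation of edgeR over detected genes was 15.02%. That value leaves counting error out, so it is not a like measure, least so for Mir1224 with its few counts. The marker lists given above also differed between the libraries, and their part in these differences was not tested.

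**Figure D5:**
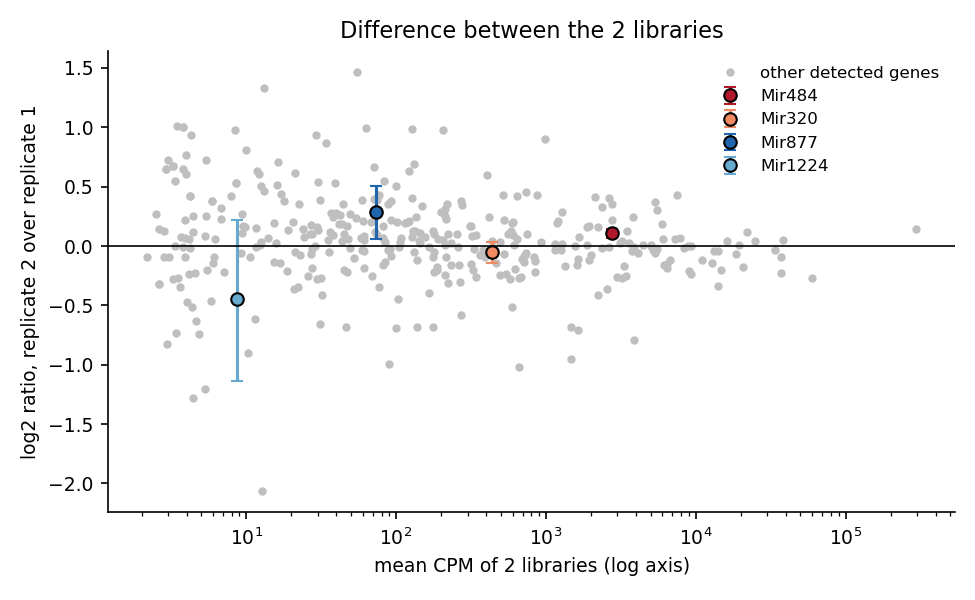
Log2 ratio of replicate 2 over replicate 1 against mean CPM on a log axis, for the members (coloured circles with counting intervals) and the other detected genes (grey points). Mir484 (0.11) and Mir877 (0.28) have intervals above 0, while those of Mir320 (-0.14 to 0.036) and Mir1224 (-1.13 to 0.22) span it.

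The reads of the members lay on 1 strand. The opposite strand held 0 counts for each of the 4 genes in both libraries, while over all gene rows it held 1.49% of counts in replicate 2 and 1.59% in replicate 1. A count of 0 allows an opposite-strand share of up to 0.0219% in replicate 2 and 0.0251% in replicate 1 for Mir484, and 0.147% and 0.150% for Mir320. For Mir877 it allows 0.787% and 1.02%, and for Mir1224, with fewer counts, 8.57% and 6.67%. This was the common state: 332 of the 370 detected genes had no opposite-strand count. For Mir484 the opposite strand is that of the overlapping Marf1 exon. Because reads were summed over each gene, the 5p and 3p arms of Mir877 and Mir1224 could not be separated.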

How the data were processed

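The deposited files hold whole-number read counts per miRNA gene, without normalization, 1 file per library. Per the deposited README text the counts came from mm10 alignments with GENCODE M4 annotation. Which aligner and counter made them is not stated there or in the labels. The first of the 2 single-strand columns was taken as sense by its position. It also held the larger total in both libraries. The 4 rows that name no gene were left out of totals. Symbols, loci, introns and start sites came from GENCODE M21 by gene identifier, with 1894 of 1973 rows matched. Sequences came from RefSeq (GRCm38.p6).

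CPM is the sense count over the sum of sense counts, times 1000000. Detected means at least 10 counts in each library. Log2 ratios have 0.5 counts added. Limits for a count of 0 use 3 counts. A two-sided exact binomial test with Benjamini-Hochberg adjustment compared the libraries. It was tried on simulated counts that held counting error only. That trial cannot show how the test behaves where libraries vary beyond counting error. No quasi-likelihood test was run, since 1 group gives no contrast. The labels do not say whether the pools shared litters or library preparation, so the spread between them may be technical, and the test covers counting error only. R 4.3.3, edgeR 4.0.16, DESeq2 1.42.0, SciPy 1.17.1 and RNAfold 2.7.2 were used.

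The members, lists and tests were chosen with earlier results of these data known. The named genes are the members, the detected genes of the lists, the 2 genes nearest to each member by distance of log2(CPM + 1), and the 5 intron-filling genes of highest mean CPM. The markers were named by the same lists, and Plod3, Polr3d, Marf1 and other hosts by position. Alternatives were TMM and DESeq2 scaling, other totals, the either-strand column, other count minimums, pseudocounts and intron tolerances, and leaving out each replicate. Counts per base of precursor were added after the data were seen.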

Additional observations from a re-analysis of the deposited data

How the results depend on the processing

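The number of genes called between the libraries was 166 and ran from 156 to 181 over its 6 alternatives. The summed level of the members, 3302 CPM, became 4699.9 CPM with the most abundant gene left out of the total and 1227 when scaled to all reads, by construction of those totals; without 1 replicate or the other it was 3202 to 3401 CPM. The member order held in each alternative run. The either-strand column could not change it, since the members had 0 opposite-strand counts. Leaving out 1 replicate gives the values of the other, where the order was already the same. Without 1 replicate or the other, Mir484 exceeded Mir320 by 5.99 to 6.69, Mir320 exceeded Mir877 by 5.37 to 6.79 and Mir877 exceeded Mir1224 by 6.53 to 10.9, and per base of precursor the first of these was 7.76. Of the intron-filling genes, 13 reached 1 count in both libraries, against 7 that reached 10, as the lower minimum implies, and 7 to 8 without 1 replicate. The ratio of Mir320, -0.054, was 0.0057 with the most abundant gene left out, and it was not called under any of its alternatives. Mir484 was called under each of its 6 alternatives and Mir1224 was called in none of the 5 that tested it. Mir877 kept its call in 3 of 6. The opposite-strand share of the members stayed at 0 without 1 replicate or the other, which follows from counts of 0 in each library. No paired analysis was possible because there is 1 group. Depth limits Mir1224 most.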

Other observations

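The other 13 miRNA genes that lie, like Mir484 and Mir320, within 500 bases upstream of a protein-coding start site on the other strand were not detected, and the highest of them, Mir1934, averaged 2.35 ± 1.74 CPM, with 17 counts in replicate 2 and 5 in replicate 1. Detection was also uncommon elsewhere, at 19.5% of the 1894 located genes and 17.6% of the 125 within 500 bases of a start site on either strand, so 13 genes are too few to set this class apart. Of these 13, 5 had no count in either library. Mir1934 was named after its values were seen.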
